A study of Rattus norvegicus with 3 samples.

Results

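Complement was examined through 9 genes, C1qa, C1qb, C1qc, C1r, C1s, C3, Serping1, Cd55 and Cd59, which were taken by symbol from a table of 17337 genes, and all 9 were found there. The samples were 3 libraries of Schwann cell precursors, the early glia of peripheral nerve, grown in a modified Sato medium from the dorsal root ganglia of wild-type rat embryos. They carried no treatment and formed 1 group, so the data give levels within these cultures and no comparison between conditions. Nothing in the labels ties the libraries to separate cultures or animals, so their spread, and each p-value drawn from it, may be technical.

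Complement is a cascade of blood and tissue proteins that tags cells and debris for removal and can open pores in membranes. In its classical arm C1q, built of A, B and C chains, binds a target and switches on the proteases C1r and then C1s, which cleave C4 and C2 so that C3 can be split. The C1 inhibitor, encoded by Serping1, blocks C1r and C1s. CD55 takes apart the enzymes that split C3, and CD59 blocks the last step of pore assembly. In the nervous system C1q is best known from microglia and macrophages, and in injured nerve complement takes part in clearing myelin debris.

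Total counts were 14139074 to 15309526 per library. Levels are TPM (a measure that corrects counts for the length of the gene and the depth of the library), given as mean ± SD over the 3 libraries. The culture was checked against 9 listed Schwann cell precursor markers, and all 9 were above 1 TPM by limma, as were 78.4% of all genes tested. The lowest was Fabp7 at 3.32 ± 1.31 TPM, with Sox10 at 612 ± 26.0, Erbb3 at 581 ± 14.3, Ngfr at 655 ± 20.7 and Ednrb at 1414 ± 16.7 TPM. By the same test 8 of 8 sensory neuron markers, 9 of 11 fibroblast markers and 7 of 13 macrophage markers were above 1 TPM, and the share of each cell type was not measured. In bulk RNA, more cells of a type and more RNA per cell cannot be told apart.

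The 9 genes fell into 3 bands of level. C1r, Cd59, C1s and Serping1 were at 35.6 TPM or more in every library, Cd55 and the 3 C1q genes lay between 1.98 and 4.59 TPM, and C3 was nearly absent with 4 counts over the 3 libraries. By limma against 1 TPM, with Benjamini-Hochberg adjustment over 13345 genes, 8 of the 9 were above and 1, C3, was below. Among all genes tested 78.4% were above and 17.8% below by the same test, so the count of genes above 1 TPM does not set complement apart. The median of the 9 was 4.13 TPM, against 21.7 TPM over all genes tested. Of the 9, 2 reached 100 TPM in each library, a level that 15.2% of the tested genes reached.

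**Figure D1:**
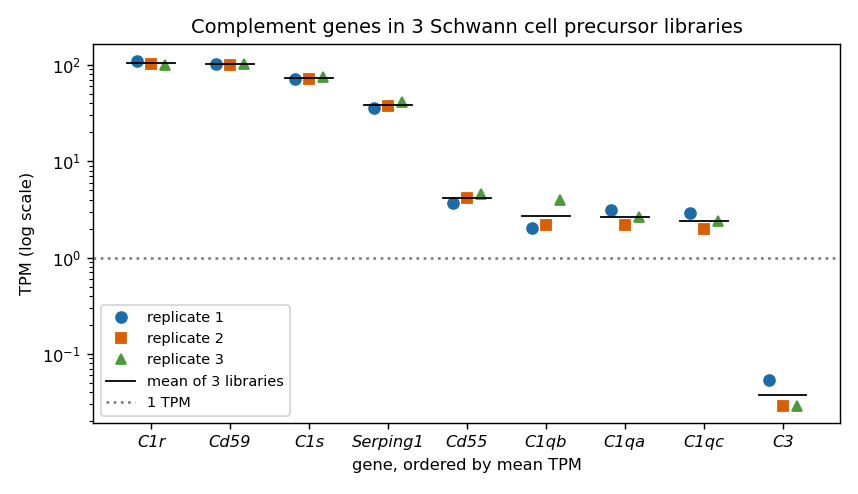
TPM of the 9 complement genes (vertical log axis) in the 3 libraries, with symbols for replicates, a bar for the mean and a dotted line at 1 TPM. C1r, Cd59, C1s and Serping1 lie far above Cd55 and the C1q genes, and C3 lies far below 1 TPM.

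Both ends of this order, and the C1q genes in the middle, can be set beside the bases ahead of their starts. Of the 9 genes, 5 matched the promoter table (C1r, C1qa, C1qb, C3 and Cd55), and C1s, C1qc, Serping1 and Cd59 had no entry. The 250 bases before the annotated start are shown 5′ to 3′ on the gene's strand, from RefSeq on GRCr8, for C1r as the highest gene, C3 as the lowest and C1qa and C1qb as chains of 1 protein at similar levels. They lie at chr4:159098763-159099012 on the plus strand for C1r, and on the minus strand at chr9:2201340-2201589 for C3, chr5:154419934-154420183 for C1qa and chr5:154407828-154408077 for C1qb. Capitals mark matches to the motifs given after the sequences.
C1r: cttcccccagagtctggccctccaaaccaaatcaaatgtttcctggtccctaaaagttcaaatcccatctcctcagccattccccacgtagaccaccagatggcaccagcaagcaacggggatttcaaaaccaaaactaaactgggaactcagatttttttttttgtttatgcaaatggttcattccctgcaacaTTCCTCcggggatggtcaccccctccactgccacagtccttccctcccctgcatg
C3: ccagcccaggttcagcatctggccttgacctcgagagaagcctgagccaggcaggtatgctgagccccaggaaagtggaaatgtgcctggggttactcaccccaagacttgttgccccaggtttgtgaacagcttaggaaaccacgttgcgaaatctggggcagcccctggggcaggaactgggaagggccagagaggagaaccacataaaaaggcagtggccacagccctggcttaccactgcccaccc
C1qa: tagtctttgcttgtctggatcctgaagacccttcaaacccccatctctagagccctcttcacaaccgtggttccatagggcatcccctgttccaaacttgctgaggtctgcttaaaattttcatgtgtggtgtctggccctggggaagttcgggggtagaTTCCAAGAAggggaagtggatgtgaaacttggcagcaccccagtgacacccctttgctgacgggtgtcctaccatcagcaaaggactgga
C1qb: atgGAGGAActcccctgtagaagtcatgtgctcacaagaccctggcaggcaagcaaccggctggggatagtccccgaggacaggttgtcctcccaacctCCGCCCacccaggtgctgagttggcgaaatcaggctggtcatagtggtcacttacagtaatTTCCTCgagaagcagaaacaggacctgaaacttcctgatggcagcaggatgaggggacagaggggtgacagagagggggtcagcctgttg

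Motifs were searched on both strands, and no marked matches overlap in these windows. The PU box GAGGAA, the core bound by the myeloid factor PU.1 and its relatives, had 1 match in C1r and 2 in C1qb, none in C1qa or C3, and stood in 23.3% of 33469 windows of this length. The STAT site TTCNNNGAA matched once, in C1qa, against 7.67% of windows. The GC box GGGCGG matched once in C1qb, none in C1r, C1qa or C3, against 30.5% of windows. None of the 4 windows held the letters of the TATA box TATAAA (12.9% of windows), the CCAAT box CCAAT (34% of windows) or the interferon response element (GAAA, any 2 bases, GAAA; 3.41% of windows). C3 had no match to any of these motifs, and C1qa and C1qb had none in common. The C1r and C3 windows each held 3 CG pairs, at 49.6% and 58.8% G+C, and the median window held 5, at 51.2%. The Cd55 window, whose sequence is not shown, held 13 CG pairs at 64.4% G+C. It matched the GC box 3 times, at 161, 28 and 23 bases before the start, and no other motif searched.

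The C1q chains were low and close to each other. C1qa had 23, 15 and 18 counts, or 3.11, 2.18 and 2.61 TPM in replicates 1, 2 and 3, with a mean of 2.63 ± 0.465. C1qb had 16, 16 and 29 counts, or 2.01, 2.16 and 3.92 TPM, with a mean of 2.70 ± 1.06. C1qc had 22, 14 and 17 counts, or 2.89, 1.98 and 2.40 TPM, with a mean of 2.42 ± 0.458. The 3 ranges overlap, and replicate 1 was highest for C1qa and C1qc while replicate 3 was highest for C1qb. Adjusted p against 1 TPM by limma was 5.97e-05 for C1qa, 0.000783 for C1qb and 0.000123 for C1qc. Without replicate 1 the call for C1qb was lost, with a limma adjusted p of 0.0537. All 3 chains ranked close together among the 17337 genes, at places 9943 to 10026, and 42.2% to 42.6% of the listed genes were lower.

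Ratios between chains were within the spread of the libraries where C1qb was involved. C1qb over C1qa had a log2 ratio of -0.01 ± 0.58 (SD) and C1qc over C1qb one of -0.10 ± 0.59, each with the first gene higher in 1 of 3 libraries. C1qc over C1qa was -0.12 ± 0.02, with C1qc lower in 3 of 3 libraries. These tests were exact sign-flip permutation tests, two-sided, with p = 0.75, 0.75 and 0.25, and 0.25 is the smallest that 3 libraries can give, so no ratio between genes can pass 0.05 here. At 53 to 61 counts per gene over all libraries, the 95% exact Poisson intervals of the pooled levels were 1.996 to 3.43 TPM for C1qa, 2.05 to 3.44 for C1qb and 1.82 to 3.19 for C1qc. These intervals overlap.

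Macrophage markers are given beside C1q because macrophages are a known source of it. Of 13 listed markers 7 were above 1 TPM by limma, 4 were below and 2 passed in neither direction. Lyz2, a lysozyme gene, was at 9.85 ± 0.463, Tyrobp, an immune receptor adaptor, at 8.35 ± 1.32, Fcer1g, an Fc receptor subunit, at 6.88 ± 2.47 and Cd68, a lysosomal protein gene, at 5.10 ± 1.499 TPM. Csf1r, the receptor on which macrophages depend for survival, was at 2.31 ± 0.204 TPM. The other markers above 1 TPM were Cd14 at 4.77 ± 1.16 and Trem2 at 1.80 ± 0.0742 TPM. The leukocyte gene Ptprc was at 0.316 ± 0.0756 and the integrin gene Itgam at 0.343 ± 0.109 TPM. Adgre1 was at 0.499 ± 0.0396 and Mrc1 at 0.671 ± 0.189 TPM, and all 4 were below 1 TPM in every library. The markers summed to 48.8, 39.8 and 40.0 TPM in replicates 1, 2 and 3, and the C1q chains to 8.01, 6.32 and 8.93 TPM. Replicate 1 was highest for the sum of the markers, for C1qa and for C1qc, and replicate 3 for C1qb and through it for the sum of the chains. Single markers differed in this. Tyrobp, Fcer1g, Cd68 and Ptprc were highest in replicate 1. Lyz2, Itgam, Trem2 and Mrc1 were highest in replicate 2, and Csf1r, Adgre1 and Cd14 in replicate 3. For C1qa and C1qc the chi-square statistic of the counts per degree of freedom was 0.559 and 0.606, where sampling noise alone gives about 1. The order of the libraries for these genes is therefore within counting error, and nothing is drawn from it. For C1qb the statistic was 3.18. The part of macrophages in the C1q levels was not tested.

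The proteases of the same complex stood far above C1q. C1r had 2180, 1920 and 1861 counts, or 109, 104 and 100 TPM, with a mean of 104 ± 4.64. C1s had 1543, 1433 and 1490 counts, or 72.0, 71.9 and 74.7 TPM, with a mean of 72.9 ± 1.57. The library values of C1r and C1s do not overlap, C1r being highest in replicate 1 and C1s in replicate 3. Limma's adjusted p against 1 TPM was 7.13e-13 for C1r and 6.08e-13 for C1s, and 88.4% and 83.4% of the listed genes were lower.

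C1r exceeded C1s by a log2 ratio of 0.52 ± 0.09, or 1.43-fold, in 3 of 3 libraries (exact sign-flip p = 0.25). C1s, the protease that cleaves C4 and C2, exceeded C1qa by 4.75 ± 0.25, or 27.0-fold, in 3 of 3 libraries (exact sign-flip p = 0.25). Together C1r and C1s came to 177 ± 3.64 TPM, and the 3 C1q chains to 7.75 ± 1.32 TPM. Fibroblast markers, which stand for another cell type known to make C1r and C1s, are given beside them. Of 11, 9 were above 1 TPM, 1 was below (Col1a2) and 1 had no count (Ogn). Col1a2 was at 0.137 ± 0.0393 TPM, far under the other collagen genes of the list, and the reason was not tested. The collagen genes Col1a1 and Col3a1 were at 3842 ± 64.6 and 2009 ± 34.3 TPM, and the proteoglycan gene Dcn and the matrix gene Postn at 842 ± 20.3 and 800.4 ± 35.0. The fibroblast markers summed to 8901 to 9106 TPM, with Col1a1 and Col3a1 as the largest terms. The Schwann cell precursor markers summed to 4512 to 4574 TPM. Sums over lists of different genes do not give the share of each cell type, and which cells carried C1r and C1s was not tested.

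**Figure D2:**
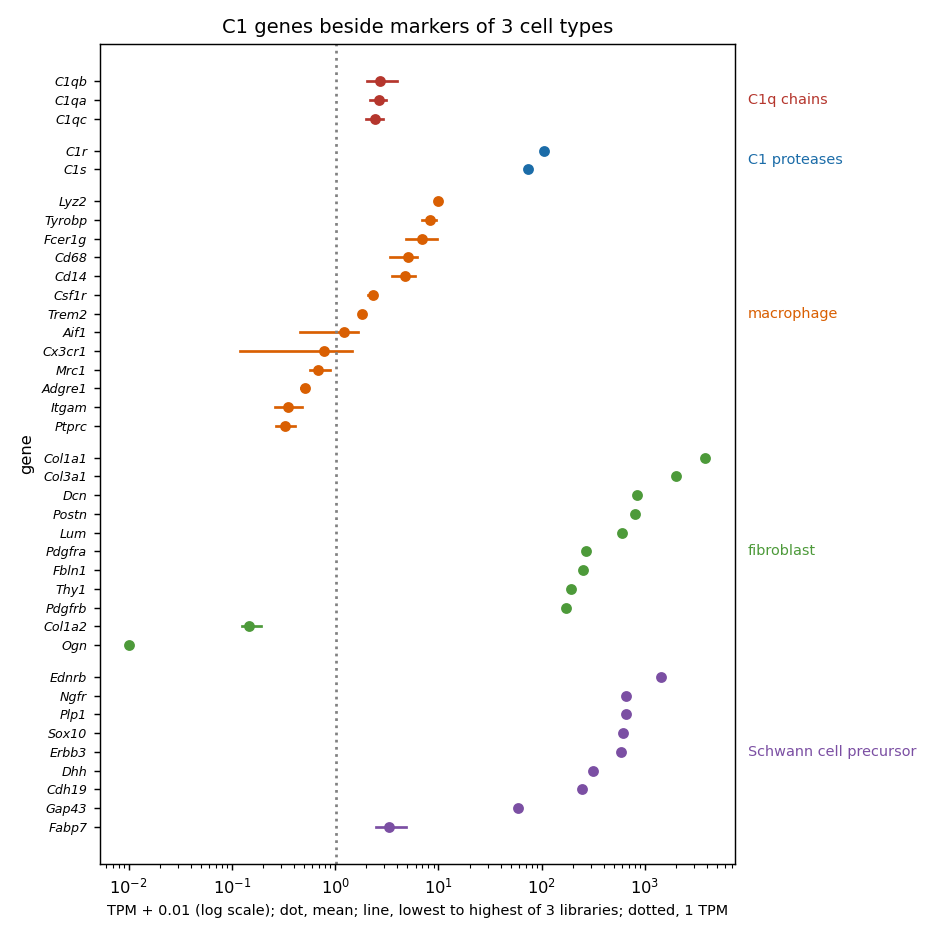
Levels of the C1q genes and C1 proteases beside markers of macrophages, fibroblasts and Schwann cell precursors (TPM with 0.01 added, log axis, with dots for the mean and lines for the lowest to the highest library). The C1q genes lie within the range of the macrophage markers, and C1r and C1s lie above every macrophage marker and below most fibroblast and precursor markers.

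C3, on which all arms of the cascade converge, was below 1 TPM. It had 2, 1 and 1 counts in replicates 1, 2 and 3, or 0.053, 0.029 and 0.029 TPM, and limma's adjusted p for a level under 1 TPM was 1.88e-06. Every library was under the level of 3 counts for this gene, which is 0.0800 to 0.0860 TPM. The 95% exact Poisson interval of the pooled level, for counting error only, was 0.0102 to 0.0955 TPM. C1r was 2804-fold above C3 with a counting interval of 1095 to 10295, C1s was 1954-fold above (763 to 7174), and C1qa was 70.9-fold above (26.2 to 269). These are ratios of pooled levels with nothing added, and with so few counts of C3 they move with any amount added. With 0.1 TPM added to each gene, C3 over C1s was -9.06 ± 0.16 on the log2 scale, which puts C1s 534-fold above. It was -6.15 ± 0.04 with 1 TPM and -10.64 ± 0.41 with 0.01 TPM added, and C3 was the lower gene in each case.

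Among the regulators, Cd59 was level with C1r. It had 1151, 1048 and 1057 counts, or 103, 100 and 101 TPM, with a mean of 101 ± 1.14. C1r was higher than Cd59 in 2 of 3 libraries, with a log2 ratio of 0.04 ± 0.05 (exact sign-flip p = 0.5), so this pair of neighbours in the order did not differ beyond its spread. Cd59 exceeded C1s by 0.48 ± 0.04 in 3 of 3 libraries (exact sign-flip p = 0.25), though by raw counts, with no correction for gene length, C1s was the higher, with a log2 ratio of -0.46 for Cd59 over C1s.

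Serping1, the inhibitor of C1r and C1s, had 471, 459 and 505 counts, or 35.6, 37.3 and 41.0 TPM, with a mean of 37.9 ± 2.75. Its library values lie under those of both proteases without overlap. Serping1 over C1s was -0.94 ± 0.08 on the log2 scale and Serping1 over C1r -1.46 ± 0.16, each lower in 3 of 3 libraries (exact sign-flip p = 0.25 for each), which puts C1s 1.92-fold and C1r 2.75-fold above their inhibitor. Limma's adjusted p for Serping1 against 1 TPM was 3.48e-11.

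Cd55, the membrane protein that takes apart the C3-splitting enzymes, was much lower than Cd59. It had 50, 52 and 58 counts, or 3.69, 4.12 and 4.59 TPM, with a mean of 4.13 ± 0.452 and a limma adjusted p against 1 TPM of 1.72e-06. Cd55 over Cd59 was -4.59 ± 0.17 on the log2 scale, so Cd59 was 24.1-fold above, in 3 of 3 libraries (exact sign-flip p = 0.25). Next below Cd55 in the order came C1qb, with Cd55 higher by 0.65 ± 0.37 in 3 of 3 libraries (exact sign-flip p = 0.25) although the ranges of the libraries overlapped.

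**Figure D3:**
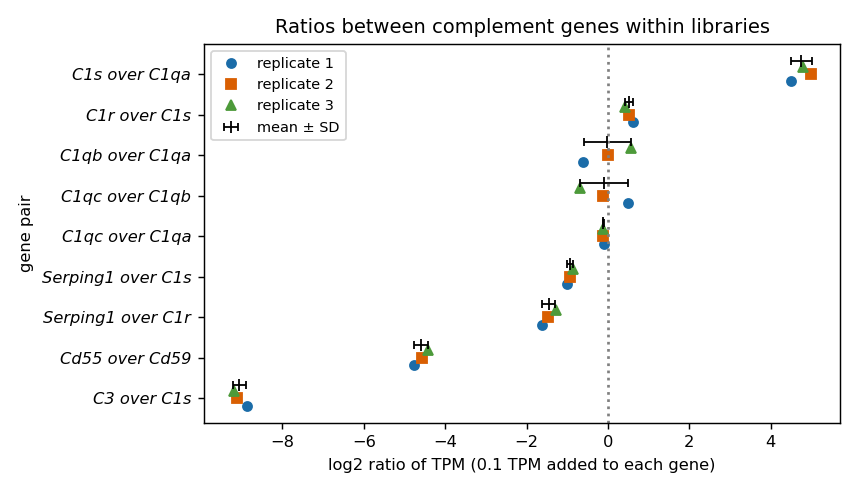
Log2 ratios of TPM between complement genes within each library (horizontal axis, 0.1 TPM added to each gene), with symbols for replicates and a bar for the mean ± SD. The ratios of C1qb to the other chains scatter on both sides of 0, and the other 7 lie on 1 side of 0 in all 3 libraries.

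The abundant genes varied little between libraries. The coefficient of variation was 1.12% for Cd59 and 2.15% for C1s, under the medians of 3.50% and 3.20% over genes whose counts were within a factor of 2 of theirs. It was 4.44% for C1r and 7.24% for Serping1, over such medians of 2.96% and 4.64%. Serping1 was highest in replicate 3 and C1r in replicate 1. As a measure of spread beyond counting, the chi-square statistic of the 3 counts per degree of freedom was 3.31 for C1r, 3.18 for C1qb and 2.74 for Serping1, where sampling noise alone gives about 1. Among genes of like counts 78.3%, 91.5% and 82.8% had a lower statistic than these. The other 6 genes had statistics of 0.0555 to 0.815.

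Some of the members are neighbours in the genome. In rn6, as listed by the authors, C1qb, C1qc and C1qa lie in this order on the minus strand of chromosome 5 within 17.7 kb, from 155246444 to 155264101, with 3 exons each. Their flanking genes were higher, with the ephrin receptor gene Ephb2 at 53.3 ± 1.26 TPM on 1 side and Zbtb40 at 13.6 ± 1.03 on the other. C1r lies on the plus strand of chromosome 4 from 157126060 to 157136817 with 11 exons, and C1s on the minus strand from 157143592 to 157155596 with 12, so the genes point toward each other with 6.78 kb between them. C1rl, the C1r-like gene on the other flank of C1r, was at 2.42 ± 0.460 TPM, near the level of the C1q chains, although only 3.37 kb separates it from C1r.

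In rn6, C3 lies on the plus strand of chromosome 9 from 9721137 to 9747084 with 41 exons. It lies next to Gpr108 at 66.2 ± 1.39 TPM and Tnfsf14, which had no count. The window shown above for C3 is on the minus strand in GRCr8, and the reason for the different strand was not tested. Serping1 lies on chromosome 3 from 72161243 to 72170537 (minus strand, 7 exons), Cd59 on chromosome 3 from 94010481 to 94028660 (plus strand, 4 exons) and Cd55 on chromosome 13 from 47127278 to 47153521 (minus strand, 10 exons). None of the 9 spans overlapped another listed gene on either strand, and each was listed at 1 place.

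The rest of the cascade was read from 44 further complement genes, of which 38 were listed. By limma 18 of the 38 were above 1 TPM and 11 below, where 78.4% of all tested genes were above and 17.8% below. Every tested gene had a count, so these shares are not on the same basis as the 38. With genes without a count kept in, limma called 10364 of 17337 genes above 1 TPM and 6235 below. The other 9 of the 38 had no count in any library. Such a gene could still be present at up to 3 counts, or 0.112 to 0.387 TPM for these 9. The median of the 38 was 0.571 TPM, against 21.7 TPM over all tested genes, which do not include genes without a count.

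Genes that act beside C1 in starting the cascade were low. Of 10, 3 were above 1 TPM, 3 were below and 4 had no count. Masp1, a protease of the lectin arm, was at 4.77 ± 0.452 TPM, and C2, a substrate of C1s, at 3.98 ± 0.599. C4a, which encodes the other substrate, was at 2.20 ± 0.0943 and C4b at 0.124 ± 0.0337 TPM. Those levels are uncertain, since C4a and C4b are near-identical copies whose listed exons share 753 bases. The lectin genes Mbl1, Mbl2 and Fcnb and the protease gene Masp2 had no count, and Mbl2 is listed with each exon length repeated across a gap of 283 kb, so its level is uncertain.

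In the alternative arm Cfp, encoding properdin, which stabilises the C3-splitting enzyme, was at 10.1 ± 1.49 TPM and Cfd, encoding the protease factor D, at 5.37 ± 0.910. Cfb, the factor that forms that enzyme with C3, was below 1 TPM with 0, 4 and 1 counts in replicates 1, 2 and 3. Of the 5 listed terminal genes, C6 was at 47.9 ± 1.06 and C8g at 9.89 ± 1.80 TPM, both above 1 TPM. C8a, C8b and C9, whose products join that of C6 in the pore, had no count.

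Further regulators with levels near those of C1r and Cd59 were Cr1l and Clu. Cr1l, the rodent membrane regulator of C3 and C4 also called Crry, was at 113, 114 and 115 TPM in replicates 1, 2 and 3, with a mean of 114 ± 0.791. Its 38 listed exons repeat 13 distinct ones, which cover 2094 bases, the length used for its TPM. Clu, encoding clusterin, which binds terminal complexes, was at 102 ± 3.40 TPM. Of the 5 listed soluble regulators, 3 were above 1 TPM, including the C3b-cleaving protease gene Cfi at 2.58 ± 0.119 and Vtn, encoding vitronectin, at 2.03 ± 0.652. C4bpa had no count. Of the 4 listed membrane regulators, 3 were above, with Cd46 at 6.06 ± 0.713 and Susd4 at 3.04 ± 0.426 TPM.

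Receptors and binding proteins ranged from Calr to genes with no count. Calr and C1qbp, which encode the chaperone calreticulin and a mitochondrial protein that also bind C1q, were at 2332 ± 66.1 and 190.3 ± 6.54 TPM, and Lrp1, a scavenger receptor, at 151 ± 7.48. C5ar2, a receptor of the C5a fragment, was at 9.56 ± 1.49 and Cr2 at 1.80 ± 0.0874 TPM. C3ar1 and C5ar1, the receptors of C3a and C5a, were below 1 TPM by limma at 0.168 ± 0.290 and 0.642 ± 0.218, and the 7 counts of C3ar1 all fell in replicate 2. C5ar1 lost its call by edgeR on the counts, with an adjusted p of 0.0553. The integrin genes Itgam and Itgb2, which form complement receptor 3, were below 1 TPM at 0.343 ± 0.109 and 0.363 ± 0.147, and Vsig4 had no count. Of the 11 listed receptor genes, 5 were above, 5 below and 1 without a count.

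**Figure D4:**
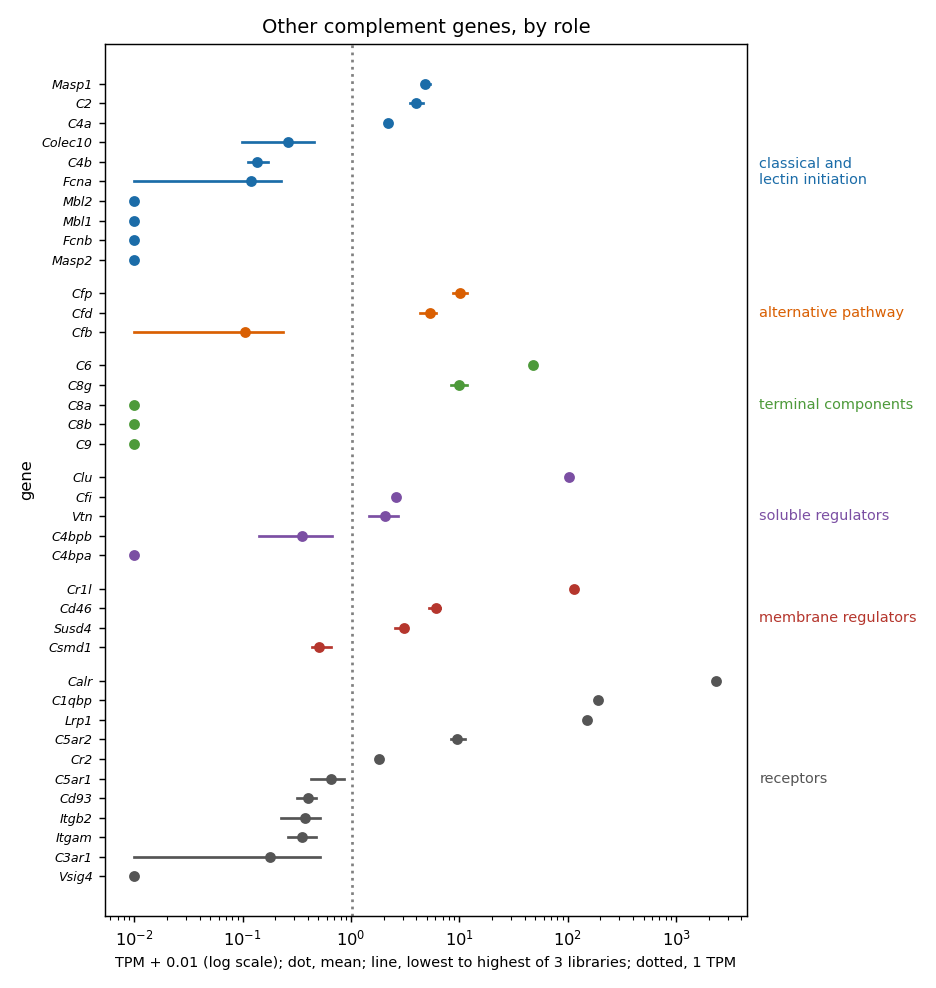
Levels of 38 further complement genes by role (TPM with 0.01 added, log axis, with dots for the mean, lines for the lowest to the highest library and a dotted line at 1 TPM). Clu, Cr1l, Calr, C1qbp and Lrp1 lie above 100 TPM, and genes at the left edge had no count.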

How the data were processed

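RNA was measured in 3 libraries made with a stranded poly(A) kit, per the labels' protocols. Per the submitters' processing notes, STAR 2.5.2b and Subread were used with rn6. Which annotation, strand setting and multi-mapping rule were used is not given in the sources used here. The authors deposited raw counts per gene, counts over length (a signal not used further) and TPM, per the file headers. Other columns held gene length and totals. TPM recomputed from the deposited counts differed by at most 0.0005, within 0.001. Rows with no gene name (2) were dropped. Total counts were 15309526, 14139074 and 14162738, and intervals and floors of 3 counts cover counting error only.

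For 13345 genes with a count, log2(TPM + 1) was set against its value at 1 TPM by the moderated test of limma 3.58.1, run in R 4.3.3 (two-sided, trended variance). Calls needed a p under 0.05 after Benjamini-Hochberg adjustment over all of them. Pairs were compared as log2 ratios with 0.1 TPM added and an exact sign-flip test. The alternative edgeR 4.0.16 quasi-likelihood F statistic was formed with the count expected at 1 TPM as offset. Both fits were also run on simulated counts, with the same spread beyond counting set for every gene. Those runs cannot show how calls behave for genes that spread more, such as C1qb. Their outcome is not given here, and nothing is drawn from them. DESeq2 1.42.0 gave size factors for an alternative scaling. 1 gene of the pathway list and 1 of the precursor marker list are not reported here. The members and lists were chosen with earlier results of these data known. Named were all members, up to 4 of the highest genes per role or cell type, genes with no count or below 1 TPM, and neighbours on the chromosome. C4b, Cfb, C3ar1, C5ar1, Itgam and Itgb2 were named after their values were seen. Csf1r, Cd14 and Trem2 were named outside these rules, which completes the macrophage markers above 1 TPM. In the endothelial list 3 of 7 genes were above 1 TPM by limma, led by Cdh5 at 16.6 ± 1.03 TPM, and in the sensory neuron list 8 of 8, led by Tubb3 at 185 ± 5.76 TPM.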

Additional observations from a re-analysis of the deposited data

How the results depend on the processing

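Calls of the 9 genes against 1 TPM kept their direction and side of the threshold in 102 of 107 alternative values. With the level set at 5 TPM, 4 were above and 5 below, and the difference in log2(TPM + 1) turned to -0.73 for C1qa, -0.74 for C1qb, -0.82 for C1qc and -0.23 for Cd55. Of all 13345 genes tested, 9127 were above and 3836 below 5 TPM. Under a filter at a mean of 0.1 TPM, C3 was not tested, so limma called 0 below, and 0 at an unadjusted p under 0.05, whereas edgeR without that filter called 1. Over all genes limma with that filter called 1372 of 12378 below, and edgeR without it 2247 of 13345. Without replicate 1 the C1qb call was lost. Leaving out each replicate in turn gave 7 to 8 above and 1 to 1 below, against 10316 to 10385 above and 2154 to 2255 below over all 13345 genes. The mean TPM of each gene moved by less than 1 SD in all 45 alternative values, TMM and DESeq2 scaling among them. This says little about robustness. With so few libraries, leaving out 1 cannot move a mean by 1 SD. Both scalings were centred across the libraries, which leaves a mean nearly unchanged. Of the 84 alternative log2 ratios 80 kept their sign. By raw counts C1qb over C1qa turned to 0.086 and Cd59 over C1s to -0.46. With replicates left out in turn, C1qb over C1qa ranged from -0.31 to 0.28 and C1qc over C1qb from -0.40 to 0.19. The cause was not tested beyond the construction of each alternative (gene lengths, fewer libraries). No paired analysis was possible because there was only 1 group. Depth limits C3 (4 counts) and the C1q chains (53 to 61 counts each).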
